A study of Mus musculus with 8 samples.

Results

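The genes described here are 36 genes of the p53 pathway, listed by name: p53 itself (Trp53) with its feedback regulators Mdm2 and Mdm4, and genes that act in cell cycle arrest, apoptosis, and DNA repair or redox control downstream of p53 or beside it. All 36 are among the 24411 gene symbols of the count tables, and 35 of them passed the filter on low counts that left 13506 genes to test. The gene that did not pass is Cdkn2a. The list was fixed by name and not by level, although it was drawn up with earlier results of these data known.

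The p53 protein is a transcription factor that is held at a low level by the ubiquitin ligase Mdm2, itself a transcriptional target of p53, so that the pair forms a feedback loop. DNA damage and other stresses free p53 from Mdm2, and p53 then binds response elements near genes that stop the cell cycle, repair DNA, limit oxidants or start apoptosis. Adult cardiomyocytes rarely divide, and several of these genes are also induced without p53, for example Sesn2 by the stress factor ATF4. YY1 protein is known to bind both p53 and Mdm2 and to promote the ubiquitination of p53.

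PolyA RNA from heart tissue of 8 mice, all C57BL/6, was sequenced. Every mouse had undergone transverse aortic constriction 1 week earlier, which narrows the aorta and loads the left ventricle with pressure. Group 1 consisted of 4 MerCreMer control mice, which carry a Cre recombinase that acts only once a ligand releases it, and group 2 of 4 mice with cardiac-specific knockout of Yin-Yang 1 (YY1 KO). Both groups share the operation, and hearts without it were not analysed here, so the comparison is of YY1 loss under load. The labels name no promoter of the Cre transgene, inducing agent, floxed allele of the controls or age. Each library is labelled as its own mouse, so the spread within a group includes that between animals.

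The libraries held 14582605 to 16000455 reads assigned to genes. Defining cardiomyocyte markers were present, as all 8 summed to 69254 to 100563 CPM (read counts scaled to a common library size) in control and to 43513 to 70589 CPM in YY1 KO hearts, with 2 of the 8 called lower. The series describes every mouse as male, yet 4 hearts go against this. In controls 1 and 4 and YY1 KO 1 and 4 the X-inactivation transcript Xist stood at 128 to 222 CPM and 4 Y-linked genes summed to 0 to 0.141 CPM. In the remaining 4 hearts Xist stood at 0 to 0.379 CPM and the Y-linked genes at 159 to 205 CPM. Both kinds are present with 2 hearts in each genotype, so results are also given with a term for this difference and within each kind. Fibroblast markers (1 of 7 called higher) summed to 983 to 2374 CPM in control and 1326 to 2863 CPM in YY1 KO hearts. Endothelial markers summed to 1585 to 2179 and 1076 to 1352 CPM with 5 of 7 called lower, and pericyte and smooth muscle markers to 1121 to 1354 and 770 to 950.4 CPM with 3 of 8 called lower. In whole tissue, fewer cells of a type and less RNA per cell cannot be told apart. Macrophage markers had 0 of 8 called by edgeR (0 at an unadjusted p under 0.05; 325.7 to 536 CPM in control and 383 to 509 CPM in YY1 KO hearts). Of the neutrophil markers, S100a9 was called higher (log2 fold change 2.40 ± 0.69, edgeR adjusted p = 0.0225), but it passed the filter mainly through the YY1 KO hearts. It was at 0.379 to 0.695 CPM in control and 0.475 to 5.91 CPM in YY1 KO hearts, so the groups overlapped. S100a8, too low to be tested, was at 0.211 to 0.379 CPM in control and 0.415 to 5.13 CPM in YY1 KO hearts. Csf3r did not pass (log2 fold change 0.86 ± 0.38, edgeR adjusted p = 0.104). The targeted gene Yy1 was lower in every heart labelled as a knockout, at 18.0 to 23.8 CPM against 33.8 to 37.2 CPM (log2 fold change −0.78 ± 0.10, SE, edgeR adjusted p = 0.000769).

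Among the 35 tested genes of the pathway, 11 were called higher in the knockouts and 2 lower (edgeR's quasi-likelihood test, Benjamini-Hochberg adjusted p below 0.05 over all genes tested). That is 31.4% higher and 5.71% lower, beside 21.6% higher and 17.3% lower among all 13506 genes tested. Without Cdkn2b, which passed the filter only through the YY1 KO hearts, 10 of 34 (29.4%) were higher, among them 2 of 9 arrest genes. The median log2 fold change of the 35 was 0.31, beside 0.01 for all genes tested. The genes that rose were Cdkn1a, Phlda3, Trp53inp1, Cdkn2b, Sesn2, Bbc3, Zmat3, Rrm2b, Gadd45b, Mdm2 and Xpc, and those that fell were Ccng1 and Plk3. In 10 of the 35 (9 of 34 without Cdkn2b) every YY1 KO heart lay above every control and in 1 every YY1 KO heart lay below, beside 21.8% and 16.5% of all genes tested. By role, 1 of 3 feedback genes, 3 of 10 tested arrest genes, 4 of 13 apoptosis genes and 3 of 9 repair and redox genes rose, and both decreases were among the arrest genes. With a term for sex the same 11 genes rose and the same 2 fell (beside 20.5% and 16.4% of all genes).

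**Figure D1:**
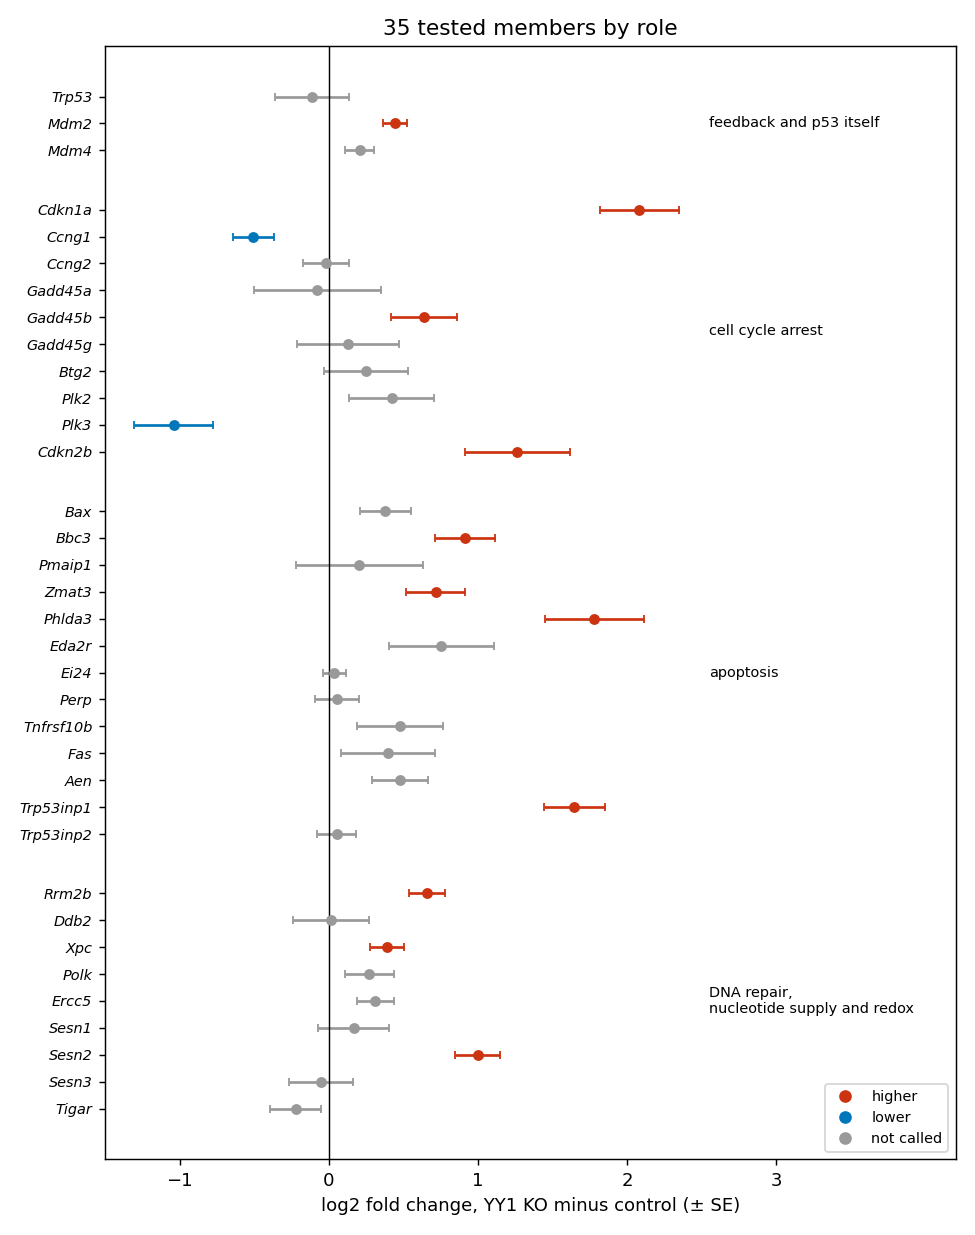
Log2 fold change (YY1 KO minus control, x axis) of the 35 tested genes, grouped by role, with SE bars. Red points mark the 11 genes called higher, blue points the 2 called lower (Ccng1 and Plk3) and grey points those not called, and Cdkn1a lies farthest to the right at 2.08.

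Since p53 acts through short response elements, promoter windows (250 bases before to 50 bases after each annotated start, RefSeq, GRCm38.p6) were searched for its consensus decamer, on both strands. Windows were at hand for 28 of the 36 genes, and 10 of these (35.7%) held at least 1 match, beside 9.55% of 27025 symbols. Counted by window, 11 of 36 held a match, beside 8.36% of 32851 windows of the same length. The list was chosen as genes of the p53 pathway, so an excess of the p53 decamer may come with that choice and says nothing of YY1 loss. The genes with a match were Cdkn1a, Mdm2, Ccng1, Trp53, Bax, Aen, Ei24, Sesn1, Polk and Gadd45a. Of these, Cdkn1a and Mdm2 rose and Ccng1 fell. A pair of decamers at most 13 bases apart was found for Cdkn1a alone of the list, beside 0.074% of all symbols. The ATF4 composite element TTNCATCA, searched on both strands, was in 2 of the 28 (Gadd45g and Polk; 4.51% of all symbols) and the YY1 element AANATGGC, likewise on both strands, in 2 of the 28 (Bax and Polk; 6.96% of all symbols). The stretches below show the decamers (capitals) of the called genes and of Trp53, with Bax and Sesn1 as genes with a match that did not pass. A match describes letters and does not show binding.
Cdkn1a: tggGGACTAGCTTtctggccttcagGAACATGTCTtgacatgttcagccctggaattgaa
Mdm2: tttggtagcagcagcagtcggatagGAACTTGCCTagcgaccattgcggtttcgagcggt
Ccng1: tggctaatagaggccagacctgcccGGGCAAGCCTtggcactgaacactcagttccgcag
Trp53: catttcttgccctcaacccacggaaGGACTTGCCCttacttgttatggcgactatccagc
Bax: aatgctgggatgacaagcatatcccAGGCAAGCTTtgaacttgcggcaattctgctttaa
Sesn1: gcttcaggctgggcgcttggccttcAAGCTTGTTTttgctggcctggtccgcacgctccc

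The stretch of Cdkn1a lies at chr17:29090903-29090962 on the plus strand, with its decamers 73 to 64 and 51 to 42 bases before an annotated start. That of Mdm2 lies at chr10:117710910-117710969 (minus strand), that of Ccng1 at chr11:40755437-40755496 (minus), that of Trp53 at chr11:69580259-69580318 (plus), that of Bax at chr7:45467065-45467124 (minus) and that of Sesn1 at chr10:41887241-41887300 (plus). None of the decamers in these 6 stretches overlaps an annotated exon, whereas those of Aen, Ei24 and Gadd45a do.

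The transcript of p53 itself did not pass the test. Trp53 stood at 25.8, 30.9, 53.1 and 40.7 CPM in controls 1 to 4 and at 42.6, 23.5, 32.7 and 40.5 CPM in YY1 KO 1 to 4, with a log2 fold change of −0.11 ± 0.25 (edgeR adjusted p = 0.744). The groups overlapped throughout. The highest value, in control 3, and the lowest, in YY1 KO 2, fell in the hearts with the highest and lowest sum of 5 proliferation markers (221 and 3.40 CPM), whose part in the Trp53 level was not tested. Since p53 is controlled mainly through the stability of its protein, its transcript does not measure its activity.

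Mdm2, the ligase that degrades p53, rose. It stood at 72.8, 73.3, 67.0 and 66.8 CPM in the controls and at 103, 86.3, 95.8 and 94.8 CPM in the YY1 KO hearts. Every knockout value lay above every control value, and the spread within each group was small. The log2 fold change was 0.44 ± 0.08 (edgeR adjusted p = 0.00306), a modest 1.36-fold difference. Mdm4, a relative of Mdm2 that binds p53 and blocks its transactivation, reached 65.0 ± 8.21 CPM against 56.3 ± 1.71 CPM (SD, n = 4 each) and did not pass (log2 fold change 0.21 ± 0.10, edgeR adjusted p = 0.121). It passed when libraries were scaled by size alone (edgeR adjusted p = 0.034).

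Cdkn1a, which encodes the cyclin-dependent kinase inhibitor p21 and is the best known arrest gene downstream of p53, showed the largest difference of the list. Its levels were 77.3, 111, 118 and 197 CPM in the controls and 569, 579, 558 and 419.5 CPM in the YY1 KO hearts. Even the lowest knockout, YY1 KO 4, was far above the highest control, control 4. The mean rose 4.23-fold, from 126 ± 50.8 to 532 ± 75.3 CPM (a log2 fold change of 2.08 ± 0.26, edgeR adjusted p = 0.000697). An antisense transcript overlaps its exons, and 5.33% of its reads with a strand were antisense. Antisense exons also overlap Gadd45a, Rrm2b and Plk3 (5.97%, 3.23% and 1.09% antisense reads), and counts of the sense strand again gave 11 higher and 2 lower genes. Within the Y-positive hearts the log2 fold change of Cdkn1a was 2.30 (edgeR adjusted p = 0.00173) and within the Xist-positive hearts 1.85 (edgeR adjusted p = 0.124), where no gene at all was called.

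Other arrest genes went both ways. Ccng1, which encodes cyclin G1, a p53 target that recruits a phosphatase to Mdm2, fell and had the highest mean CPM of the list in controls. It stood at 1035, 1089, 946 and 846 CPM in the controls and at 691, 561, 723 and 785 CPM in the YY1 KO hearts, without overlap (log2 fold change −0.50 ± 0.14, edgeR adjusted p = 0.0175). The call was lost without control 2 (edgeR adjusted p = 0.0513). Plk3, a polo-like kinase that acts in stress responses, fell from 10.9 ± 3.90 to 5.33 ± 0.427 CPM (a log2 fold change of −1.04 ± 0.26, edgeR adjusted p = 0.0138). Control 1, at 5.56 CPM, lay among the YY1 KO hearts (4.93 to 5.70 CPM), while the other controls reached up to 14.7 CPM. Its paralog Plk2 did not pass, with 31.0 ± 14.1 CPM in controls and 41.5 ± 9.11 CPM in YY1 KO hearts (log2 fold change 0.42 ± 0.28, edgeR adjusted p = 0.264), but it was called higher without control 3 (edgeR adjusted p = 0.0127).

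The 3 Gadd45 genes encode small stress-induced proteins that bind cell cycle and repair factors, and 1 of them was called. Gadd45b was at 9.01, 7.90, 4.80 and 7.72 CPM in controls and at 13.4, 8.69, 10.2 and 13.5 CPM in YY1 KO hearts, so that YY1 KO 2 lay inside the control range. It narrowly passed (log2 fold change 0.64 ± 0.22, edgeR adjusted p = 0.0455), and the call was lost under RLE and upper-quartile scaling (edgeR adjusted p = 0.0563 and 0.053) and without any one of controls 2, 3 and 4 or YY1 KO 1, 3 and 4 (edgeR adjusted p 0.0695 to 0.11). Gadd45a had a log2 fold change of −0.08 ± 0.42 and Gadd45g one of 0.13 ± 0.34, and neither passed. Cyclin G2 (Ccng2) was at 21.5 ± 2.32 CPM in control and 21.2 ± 4.26 CPM in YY1 KO hearts. The antiproliferative gene Btg2 was at 59.4 CPM in control 1, while the 7 other hearts held 113.7 to 190.2 CPM, and its log2 fold change was 0.25 ± 0.28.

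The INK4 inhibitors, which block the kinases CDK4 and CDK6 and mark senescent cells, were near the detection limit. Cdkn2b had 0.634, 0.570, 1.01 and 0.506 CPM in controls and 2.61, 1.43, 1.17 and 1.37 CPM in YY1 KO hearts (log2 fold change 1.26 ± 0.35, edgeR adjusted p = 0.0205). It passed the filter through the YY1 KO hearts, since only 1 control reached the 0.648 CPM the filter asks for. The filter thus favoured a rise of Cdkn2b, though it did not fix one. Its call was lost without control 2, control 4 or YY1 KO 1, with edgeR adjusted p of 0.0602, 0.0598 and 0.0533. Cdkn2a, which encodes both an INK4 inhibitor and an inhibitor of Mdm2, had 3 to 13 reads per control library and 4 to 9 per YY1 KO library. A difference in Cdkn2a was not detectable at this depth.

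**Figure D2:**
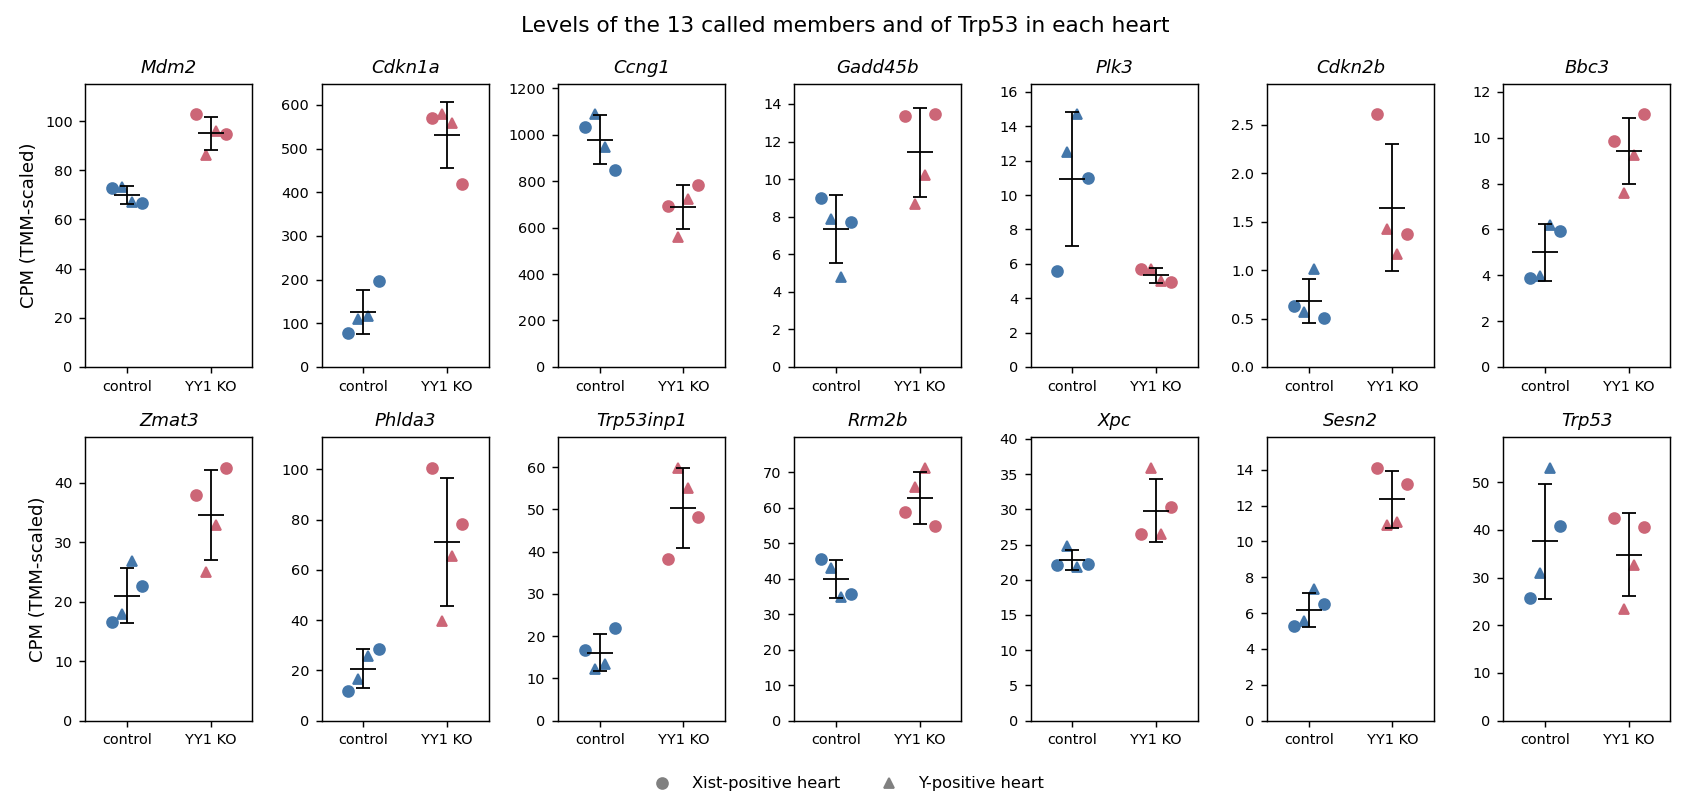
CPM (y axis) of the 13 called genes and of Trp53 in each control and YY1 KO heart. Circles are Xist-positive and triangles Y-positive hearts, horizontal bars are means and error bars SD (n = 4). Cdkn1a runs from 77.3 to 197 CPM in controls and from 419.5 to 579 CPM in YY1 KO hearts, whereas the Trp53 values of the groups overlap.

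Among the apoptosis genes, Trp53inp1 and Phlda3 moved most. Trp53inp1, which encodes a nuclear and autophagy protein that enhances p53 signalling, was at 16.8, 12.2, 13.3 and 22.0 CPM in controls and at 38.2, 59.9, 55.2 and 48.3 CPM in YY1 KO hearts. The groups were well separated, with a 3.14-fold higher mean (log2 fold change 1.65 ± 0.21, edgeR adjusted p = 0.000656). Its paralog Trp53inp2, an autophagy factor that is abundant in muscle, did not pass, with 924 ± 91.3 CPM in control and 958 ± 120.5 CPM in YY1 KO hearts (log2 fold change 0.05 ± 0.13, edgeR adjusted p = 0.768).

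Phlda3, a p53 target that inhibits the survival kinase Akt at membranes, stood at 11.8, 16.7, 25.7 and 28.4 CPM in controls and at 101, 39.6, 65.5 and 78.1 CPM in YY1 KO hearts. All knockouts exceeded all controls, but the knockouts differed among themselves by more than the controls did. The log2 fold change was 1.78 ± 0.33 (edgeR adjusted p = 0.00345). In both genotypes the hearts ranked for Phlda3 in the order of their summed fibroblast markers, which were 983, 1497, 2273 and 2374 CPM in controls 1 to 4 and 2863, 1326, 1954 and 2632 CPM in YY1 KO 1 to 4. Phlda3 was the only 1 of the 35 tested genes (2.86%) for which this held in both genotypes. In the controls alone it held for 9.07% of all genes tested and in the knockouts alone for 8.63%. Among the knockouts, summed proliferation markers gave the same order and summed cardiomyocyte markers its reverse. The part of any of these markers in the Phlda3 result was not tested.

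Bbc3, which encodes the BH3-only protein PUMA, rose without overlap from 5.00 ± 1.24 to 9.43 ± 1.43 CPM (a log2 fold change of 0.91 ± 0.20, edgeR adjusted p = 0.00735). Zmat3, an RNA-binding p53 target, was at 16.6, 17.9, 26.8 and 22.6 CPM in controls and at 37.9, 24.9, 32.9 and 42.5 CPM in YY1 KO hearts. There YY1 KO 2 fell below control 3 (log2 fold change of Zmat3 0.72 ± 0.20, edgeR adjusted p = 0.0186). Its call was lost without control 2 (edgeR adjusted p = 0.0579). The pore-forming Bax did not pass, at 24.9 ± 4.78 against 32.4 ± 5.76 CPM (control against YY1 KO; log2 fold change 0.38 ± 0.17, edgeR adjusted p = 0.105). Its exons share 192 bases with a predicted gene on the same strand. Pmaip1, which encodes the BH3-only protein NOXA, was at 0.282 to 1.26 CPM in controls and 0.543 to 0.975 CPM in YY1 KO hearts, too low for a difference of this size to be detected.

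The death receptor genes and the remaining apoptosis genes did not pass in the full comparison. Fas, the receptor for Fas ligand, had a log2 fold change of 0.40 ± 0.31, Tnfrsf10b, the TRAIL receptor, one of 0.47 ± 0.29 and Eda2r, an X-linked receptor of the same family, one of 0.76 ± 0.35 (edgeR adjusted p 0.119 to 0.34). Aen, a p53-induced nuclease, was at 41.8 to 49.2 CPM in controls and at 79.2, 41.2, 59.6 and 75.9 CPM in YY1 KO 1 to 4 (edgeR adjusted p = 0.0699). YY1 KO 2 was the one knockout inside or below the control range for Aen and Eda2r. Without it, Aen (log2 fold change 0.64, edgeR adjusted p = 0.00561), Eda2r (1.01, edgeR adjusted p = 0.0147) and Bax (0.49, edgeR adjusted p = 0.0455) were called higher and Tigar lower (−0.40, edgeR adjusted p = 0.0425). Ei24 and Perp, 2 membrane protein genes induced by p53, had log2 fold changes of 0.04 ± 0.08 and 0.05 ± 0.15.

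In the repair and redox group the clearest increases were in Sesn2 and Rrm2b. Sesn2, a sestrin that restrains mTORC1 and answers to ATF4 as well as p53, was at 5.28, 5.55, 7.33 and 6.51 CPM in controls and at 14.1, 10.9, 11.1 and 13.2 CPM in YY1 KO hearts. Each knockout lay above each control, and the mean was 2.00-fold higher (log2 fold change 1.00 ± 0.15, edgeR adjusted p = 0.00139). Sesn1, the family member most tied to p53, was at 80.9 to 189 CPM in YY1 KO and 102 to 150.4 CPM in control hearts, and Sesn3 at 2.81 to 4.10 and 2.99 to 4.61 CPM. Neither passed (edgeR adjusted p = 0.609 and 0.866). Rrm2b, the p53-inducible ribonucleotide reductase subunit that supplies nucleotides in cells that do not divide, was at 45.6, 43.1, 34.9 and 35.8 CPM in controls and at 58.9, 65.9, 71.3 and 54.9 CPM in YY1 KO hearts. These groups did not overlap either (log2 fold change 0.66 ± 0.12, edgeR adjusted p = 0.00311).

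Xpc, which recognises distorted DNA for nucleotide excision repair, rose. Its mean was 22.7 ± 1.42 CPM in control and 29.8 ± 4.48 CPM in YY1 KO hearts (log2 fold change of 0.39 ± 0.12, edgeR adjusted p = 0.0256). Leaving out control 1, 3 or 4 or YY1 KO 2 gave edgeR adjusted p of 0.0528, 0.0601, 0.0647 and 0.0503 for Xpc. The repair endonuclease gene Ercc5 was higher without overlap but did not pass (log2 fold change 0.31 ± 0.12, edgeR adjusted p = 0.0724). Ddb2, a damage-binding subunit, did not pass (log2 fold change 0.02 ± 0.25), nor did it in any of the 21 alternatives, sense-strand counts among them. Exons of Acp2 overlap its own by 652 bases, and 62.5% of its reads with a strand were antisense. That share comes from the counts by strand and not from the counts tested. How far Acp2 enters the tested counts of Ddb2 was not tested. The translesion polymerase gene Polk (0.27 ± 0.16) and Tigar, a phosphatase that diverts glucose to the pentose phosphate pathway (−0.22 ± 0.17), did not pass.

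Per kilobase of exon, the level in controls spanned a wide range. Ccng1 was highest at 279 CPM per kilobase, followed by Trp53inp2 at 176, Perp at 86.2, Btg2 at 44.6, Cdkn1a at 35.4 and Sesn1 at 31.7. Trp53 was at 9.30 and Mdm2 at 13.8 CPM per kilobase. Sesn3 (0.227), Pmaip1 (0.263), Cdkn2a (0.448) and Cdkn2b (0.489) were at the bottom of the list. In YY1 KO hearts Cdkn1a, at 149.6 CPM per kilobase, came after only Ccng1 (196) and Trp53inp2 (182). Phlda3 went from 13.2 to 45.5 CPM per kilobase and Trp53inp1 from 2.48 to 7.78.

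The knockout hearts differed among themselves. YY1 KO 2 had the lowest value of the 4 knockouts for 18 of the 35 tested genes (31.8% of all genes) and the highest for 12 (30.8% of all genes). YY1 KO 1 was highest for 13 (23.9% of all genes) and lowest for 7 (27.5% of all genes). Within the knockouts, both Xist-positive hearts lay above both Y-positive hearts for 15 of the 35 (42.9%, beside 23.4% of all genes tested) and below them for 5 (14.3%, beside 25.5%). The 15 included the apoptosis genes Bax, Bbc3, Zmat3, Phlda3, Eda2r, Ei24, Tnfrsf10b and Aen. The rest of the 15 were the arrest genes Gadd45a, Gadd45b, Gadd45g, Btg2 and Plk2, with Trp53 and Sesn2. The 5 were Trp53inp1, Rrm2b, Ddb2, Ercc5 and Tigar. Within the controls the corresponding counts were 3 (8.57%, beside 9.46% of all genes) and 3 (8.57%, beside 9.96%). The knockouts ranked in the order of their summed fibroblast markers for 10 of the 35 (8.63% of all genes tested), namely Trp53, Gadd45g, Btg2, Bax, Phlda3, Eda2r, Ei24, Tnfrsf10b, Aen and Sesn2. Within the controls this count was 4 of 35 (11.4%, beside 9.07% of all genes), namely Cdkn1a, Pmaip1, Phlda3 and Polk. The order is not particular to fibroblast markers. Summed proliferation markers gave the same order (71.8, 3.40, 18.9 and 50.5 CPM in YY1 KO 1 to 4). Summed cardiomyocyte markers gave its reverse (43513, 70589, 66231 and 63367 CPM). Of the fibroblast markers, Col1a1 and Col1a2 followed the order, and Pdgfra, Dcn, Lum, Tcf21 and Dpt did not. The Xist-positive knockouts also had the higher fibroblast sums, so sex and these sums cannot be told apart here.

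**Figure D3:**
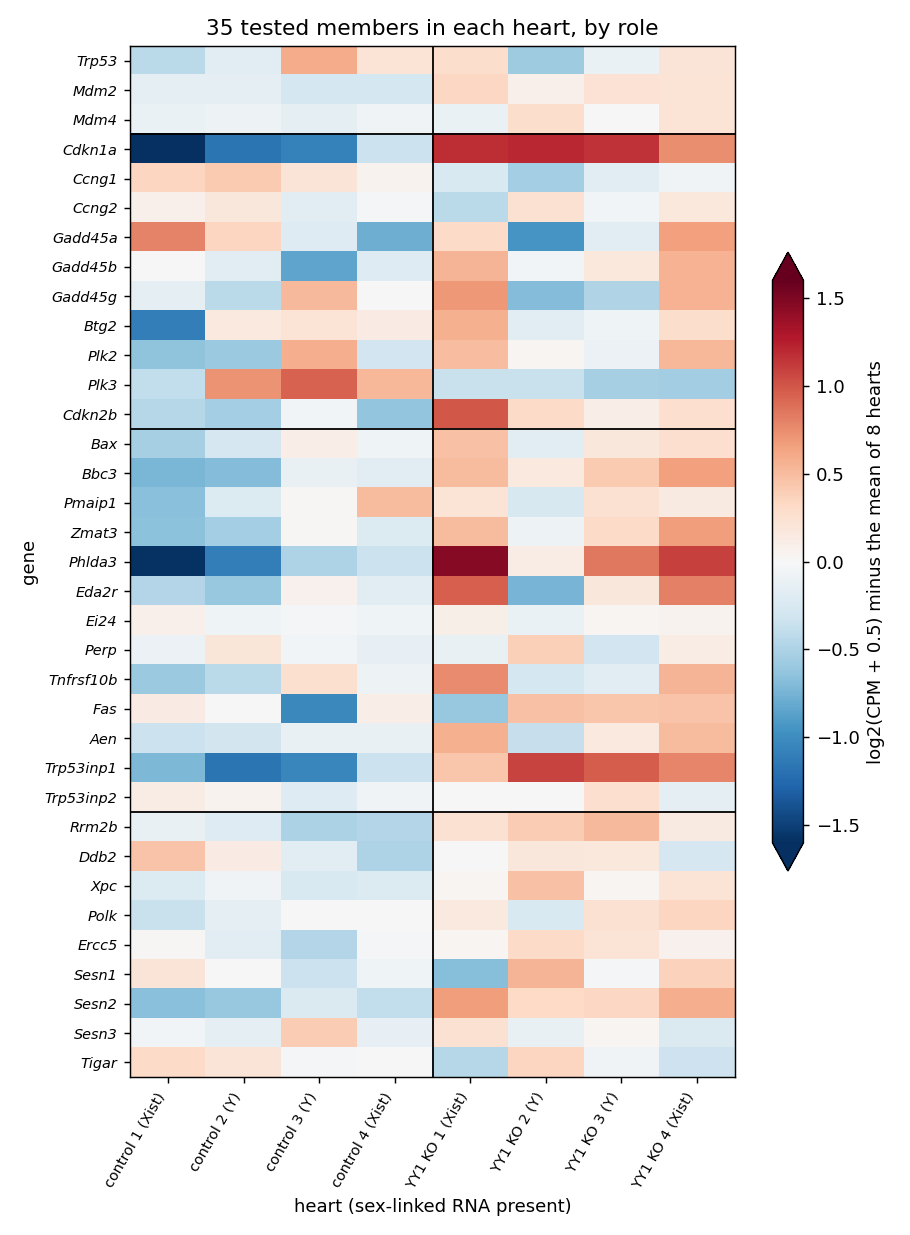
Level of each of the 35 tested genes (rows, by role) in each heart (columns), as log2(CPM + 0.5) minus the mean of the 8 hearts, red above and blue below it. Cdkn1a, Phlda3 and Trp53inp1 change most from the control to the YY1 KO columns, and YY1 KO 2 is paler or blue for Bax, Eda2r and Aen where YY1 KO 1 and YY1 KO 4 are red.

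Fitted within each sex, all 13 called genes kept their direction in both. They were picked by their calls in the same hearts, which favours the same direction, so this is no separate support. In the Y-positive hearts, 5 of the 35 were called higher (Cdkn1a, Phlda3, Trp53inp1, Rrm2b and Ercc5; 12.7% of all genes) and 1 lower (Plk3; 11.8% of all genes), and at an unadjusted p under 0.05, 9 were higher (20.5% of all genes) and 3 lower (20.1%). In the Xist-positive hearts edgeR called 0 of the 35 and 0% of all 13671 genes in either direction after adjustment, while at an unadjusted p under 0.05, 16 of the 35 were higher (45.7%, beside 13.5% of all genes) and 1 was lower (Tigar; 11.7% of all genes). A test of the difference itself, the genotype by sex interaction in edgeR, called 0 of the 35 after adjustment (lowest adjusted p = 0.812). At an unadjusted p under 0.05 it named 7 of them (Trp53inp1, Gadd45g, Tnfrsf10b, Ercc5, Tigar, Aen and Eda2r), beside 5.20% of all genes. The log2 fold change of Trp53inp1 was 2.15 in the Y-positive and 1.15 in the Xist-positive hearts, and that of Phlda3 was 1.29 and 2.15, with neither difference passing after adjustment.

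Other lists of the pathway were described in the same way, beside 21.6% higher and 17.3% lower among all genes tested. Among 27 tested regulators of p53, 6 rose (22.2%) and 4 fell (14.8%), with a median log2 fold change of 0.01. The damage kinase gene Atr rose from 18.2 ± 2.04 to 34.6 ± 1.79 CPM (a log2 fold change of 0.92 ± 0.10, edgeR adjusted p = 0.000363), Prkdc, the catalytic subunit of DNA-dependent protein kinase, by 0.65 ± 0.11 and Wwox by 0.74 ± 0.14, whereas the acetyltransferase gene Ep300 fell by 0.42 ± 0.08 on the log2 scale. In the list of 39 other tested p53 targets, 9 rose (23.1%) and 7 fell (17.9%), close to the shares of all genes (median −0.01). Ephx1, an epoxide hydrolase gene, rose from 40.8 ± 2.43 to 182 ± 12.8 CPM (2.16 ± 0.09), while Steap3 fell by 1.07 ± 0.15 on the log2 scale. Trp53cor1, a noncoding RNA next to Cdkn1a, is also among the 9, going from 0.565 ± 0.272 to 3.17 ± 0.868 CPM (2.47 ± 0.36). Its control mean lay below the 0.648 CPM of the filter, so it passed the filter through the YY1 KO hearts. Trp53i13 rose too (0.75 ± 0.12), but 35.8% of its reads with a strand were antisense.

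Of 36 genes for DNA damage signalling and repair, 10 rose (27.8%) and 5 fell (13.9%), beside 21.6% and 17.3% of all genes tested (median 0.06). Brca2, needed for homologous recombination, rose from 3.21 ± 0.635 to 9.30 ± 1.42 CPM (a log2 fold change of 1.53 ± 0.19), Rad50, part of the complex that senses double-strand breaks, by 0.68 ± 0.09, and the helicase gene Ercc3 by 0.65 ± 0.10. Ung, which removes uracil from DNA, fell from 24.6 ± 3.04 to 5.26 ± 2.77 CPM (−2.22 ± 0.34). In the apoptosis machinery 4 of 24 genes rose (16.7%) and 4 fell (16.7%), with a median of 0.02. Among them were Bad and Birc2 (higher) and Bik and Cflar (lower). Bad, a BH3-only gene, rose by 0.77 ± 0.10, and Cflar, which restrains caspase 8, fell by 0.60 ± 0.10 on the log2 scale. The edgeR adjusted p of the genes named with values here was at most 0.00343 for those of the first 3 lists and 0.00225 for Bad and Cflar.

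Of 20 tested ATF4 and stress response genes, 13 rose and 0 fell (median 0.90), among them the factor Atf5 (1.90 ± 0.13), Trib3 (3.43 ± 0.27), Asns (3.53 ± 0.33) and Mthfd2 (3.41 ± 0.38), with edgeR adjusted p of at most 0.000416. At an unadjusted p under 0.05, 0 of its genes were lower, and DESeq2 and limma-voom called 0 and 0 lower. Of 26 cell cycle genes that p53 signalling represses through p21, 2 fell and 0 rose in edgeR, with a median of −1.13 (at an unadjusted p under 0.05, 3 were lower and 0 higher, and DESeq2 and limma-voom called 0 and 0 higher). Cenpf fell by 2.07 ± 0.51 (edgeR adjusted p = 0.0122) and Mcm2 by 1.57 ± 0.44 on the log2 scale (edgeR adjusted p = 0.0206), the latter lost without control 3 or YY1 KO 3. The summed level of this list was 113, 217, 598 and 381 CPM in controls 1 to 4 and 249.9, 81.4, 124 and 202 CPM in YY1 KO 1 to 4, so that controls 1 and 2 lay inside the range of the knockouts. Without control 1, 8 of these genes were called lower.

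**Figure D4:**
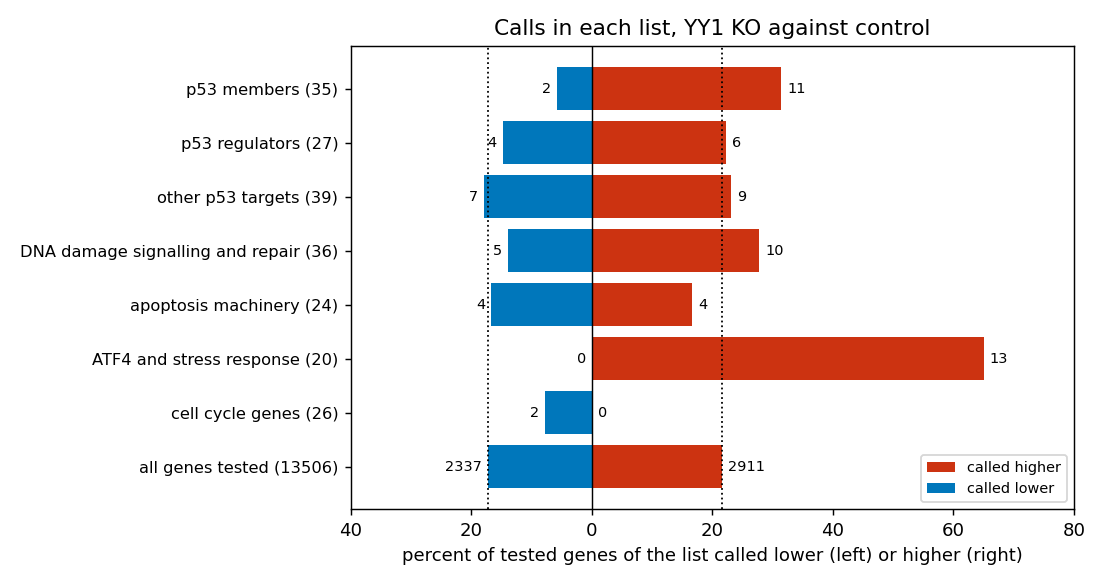
Percent of the tested genes of each list called lower (left) and higher (right) in YY1 KO hearts, with the number of genes at the bar ends, the number tested in brackets and dotted lines at the shares of all genes tested (17.3% and 21.6%). The ATF4 and stress response list reaches 65.0% higher and the p53 genes 31.4% higher, while the list of cell cycle genes has 0% higher and 7.69% lower.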

How the data were processed

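The deposited tables give raw read counts per gene symbol, 1 table per heart. Per the submitters' processing notes, the authors trimmed reads with Trimmomatic and aligned them with STAR to mm10. The sources used here give no versions, settings or annotation. Counts irrespective of strand were used. Reads assigned to no gene (33.0 to 38.9% per library) were left out. Libraries of a group differed by more than sampling noise (chi-square over degrees of freedom, 14.6 to 97.4).

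Genes were kept by filterByExpr (minimum count 10 in at least 4 libraries, 0.648 CPM), leaving 13506. YY1 KO was compared with control by edgeR 4.0.16 (TMM, robust quasi-likelihood F test across all genes, R 4.3.3), adjusted by Benjamini-Hochberg with a threshold of 0.05. The SE is the absolute log2 fold change over the square root of F. Counts were also simulated for this layout (13398 genes), with far fewer changed genes than were called in the data. There 62.0% of 2-fold and 13.1% of 1.5-fold changes were recovered and 6.25% of 80 calls were false. The data gave 5248 calls, so the adjustment was stricter in the simulation and these shares do not carry over. A missing call still does not show that a gene is unchanged. Positions and exon lengths came from GENCODE M21 (GRCm38), which matched 24054 of 24411 symbols. Sequences came from RefSeq. RefSeq windows were not used for Pmaip1, Trp53inp1, Xpc, Ddb2, Perp, Zmat3, Rrm2b and Tnfrsf10b.

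Named genes are the 36 listed, Yy1 and, of each of 6 related lists, the 4 with the smallest p, plus all called genes where at most 5 were called. Members and lists were chosen with earlier results of these data known. Hearts were called Xist-positive where Xist exceeded the sum of 4 Y-linked genes. Alternatives were DESeq2 1.42.0, limma-voom (limma 3.58.1), scaling by RLE, by upper quartile or by library size alone, 2 other filters, sense-strand counts, a block for the replicate number, a fit with 1 surrogate variable from sva 3.50.0, a term for sex, fits within each sex, and leaving out each library.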

Additional observations from a re-analysis of the deposited data

Results flagged for a closer look

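Across the 74 sets of 4 hearts formed by the 36 genes and Yy1 in each genotype, 6 had a heart that stood apart from the other 3 in CPM, where chance flags about 1 in 20. Cdkn1a in YY1 KO 4 was at 419.5 CPM, below the other knockouts. Btg2 in control 1 was at 59.4 CPM, below the other controls. Fas stood low in control 3, at 6.32 CPM, and in YY1 KO 1, at 8.67 CPM. Xpc in control 2 was at 24.8 CPM and Sesn3 in control 3 at 4.61 CPM, both above the other controls.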

How the results depend on the processing

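Of the 13 called genes, 8 (Mdm2, Cdkn1a, Plk3, Bbc3, Phlda3, Trp53inp1, Rrm2b and Sesn2) kept their direction and call in all 19 alternatives other than the fits within one sex. The share among all called genes was not counted, so 8 of 13 cannot be set against a background. None of the 13 changed direction in any of the 21, which all draw on the hearts that gave the calls. Leaving out single libraries gave 8 to 13 higher and 1 to 3 lower p53 genes and 3860 to 5233 genes called in all, with Yy1 at −0.84 to −0.71. Without control 2 there was 1 lower p53 gene. In the related lists the same step gave 4 to 5 higher and 2 to 5 lower p53 regulators, 9 to 10 and 5 to 8 other p53 targets, 7 to 10 and 3 to 5 repair genes, 2 to 4 and 2 to 6 genes of the apoptosis machinery, 11 to 14 and 0 ATF4 genes, and 0 to 1 and 1 to 8 cell cycle genes.

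With 1 surrogate variable, 17 p53 genes were higher, 8 genes of the apoptosis machinery lower, 1 ATF4 gene lower and 15 cell cycle genes lower. The same fit called 6925 of all 13506 genes, beside 5248 in the main fit, so calls rose outside these lists too. With library size alone, 2 p53 regulators and 3 repair genes were lower, and 5248 genes were called in all. Within the Xist-positive hearts 0 genes were called in all and in every list, and Yy1 was at −0.76 (edgeR adjusted p = 0.116). Within the Y-positive hearts 3336 genes were called in all, 5 p53 genes higher and 1 lower, 2 p53 regulators lower, 6 repair genes higher and 3 lower, and 14 cell cycle genes lower. These fits rest on 2 against 2 hearts.

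Same-numbered hearts of both genotypes were alike in being Xist-positive or Y-positive. Their deviations from the group means correlated at −0.46, 0.34, −0.06 and 0.27, which does not settle whether replicate numbers pair the samples. With the replicate block, Cdkn2b and Ccng1 were no longer called (edgeR adjusted p = 0.0528 and 0.0716), leaving 1 lower p53 gene, 3 repair genes were lower and 4026 genes were called in all. Not every heart correlated best with its own number. The causes of these shifts were not tested. Genes near 1 CPM (Cdkn2a, Cdkn2b and Pmaip1) are limited by depth.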
